A study of Macaca mulatta with 24 samples.

Results

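Matrix metalloproteinases (MMPs) and tissue inhibitors of metalloproteinases (TIMPs) were followed in the colon of rhesus macaques after total-body irradiation (TBI). The 10 genes were MMP1, MMP2, MMP3, MMP7, MMP9, MMP10, MMP12, MMP14, TIMP1 and TIMP3, out of 14491 named genes that had a probe on the array. A gene's probes were taken by its symbol in the scanner output or the series tables, which gave 17 probes for the 10 genes. TIMP3 had 6 probes, MMP1 and TIMP1 had 2 each, and the others had 1 each. All 10 genes passed the filter on dim probes.

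Animals received a single whole-body dose of cobalt-60 gamma rays of 6.7 Gy or 7.4 Gy, and colon RNA was hybridised to one-colour oligonucleotide arrays, with 1 array per animal. Each dose had 4 arrays on day 4, 4 on day 7 and 2 on day 12 after TBI. The 4 unirradiated animals, which carry a day 4 label, served as the control of both doses at every day, so all comparisons with control share them. The methods describe young adult males and RNA from whole colon tissue, so mucosa and muscle wall were read together. Every value below is a log2 signal relative to the 75th percentile of its array, called the log2 level, or a difference between such levels, called a log2 change. A change was called when limma's adjusted p was below 0.05 over all 38220 tested probes and the fold change was at least 2. Levels of different genes cannot be compared on this scale, because probes differ in brightness. The share of probes well above background ran from 66.6% to 84.8% per array, no spot was saturated, and arrays correlated at 0.96 to 0.98 within groups and 0.95 to 0.98 between groups. The colon epithelial markers EPCAM, LGALS4 and KRT20 were above background on every array.

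MMPs are zinc-dependent endopeptidases that are mostly secreted as inactive proenzymes, become active once a propeptide is removed, and together cut nearly all components of the extracellular matrix. They also release or inactivate cytokines, chemokines and growth factors held in the matrix or at the cell surface. TIMPs bind the active site of MMPs and so set the balance of proteolysis. In the gut these genes are known from mucosal wounding, inflammation and epithelial repair, and most are made by stromal and immune cells, with MMP7 as the best-known epithelial member.

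On day 4 the transcripts of 4 of the 10 genes were called higher than control after either dose, and the genes were MMP2, MMP7, MMP9 and TIMP1. None of the 10 was called lower. Over all tested probes, 1.81% were called higher and 1.83% lower on day 4 at 6.7 Gy, and 3.4% higher and 3.65% lower on day 4 at 7.4 Gy. The median log2 change over the 10 genes was 1.5 at 6.7 Gy and 1.40 at 7.4 Gy, against medians of -0.04 and -0.02 over all 13460 tested genes. Because whole tissue was assayed, a changed share of a cell type and changed RNA per cell cannot be told apart for any transcript here.

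**Figure D1:**
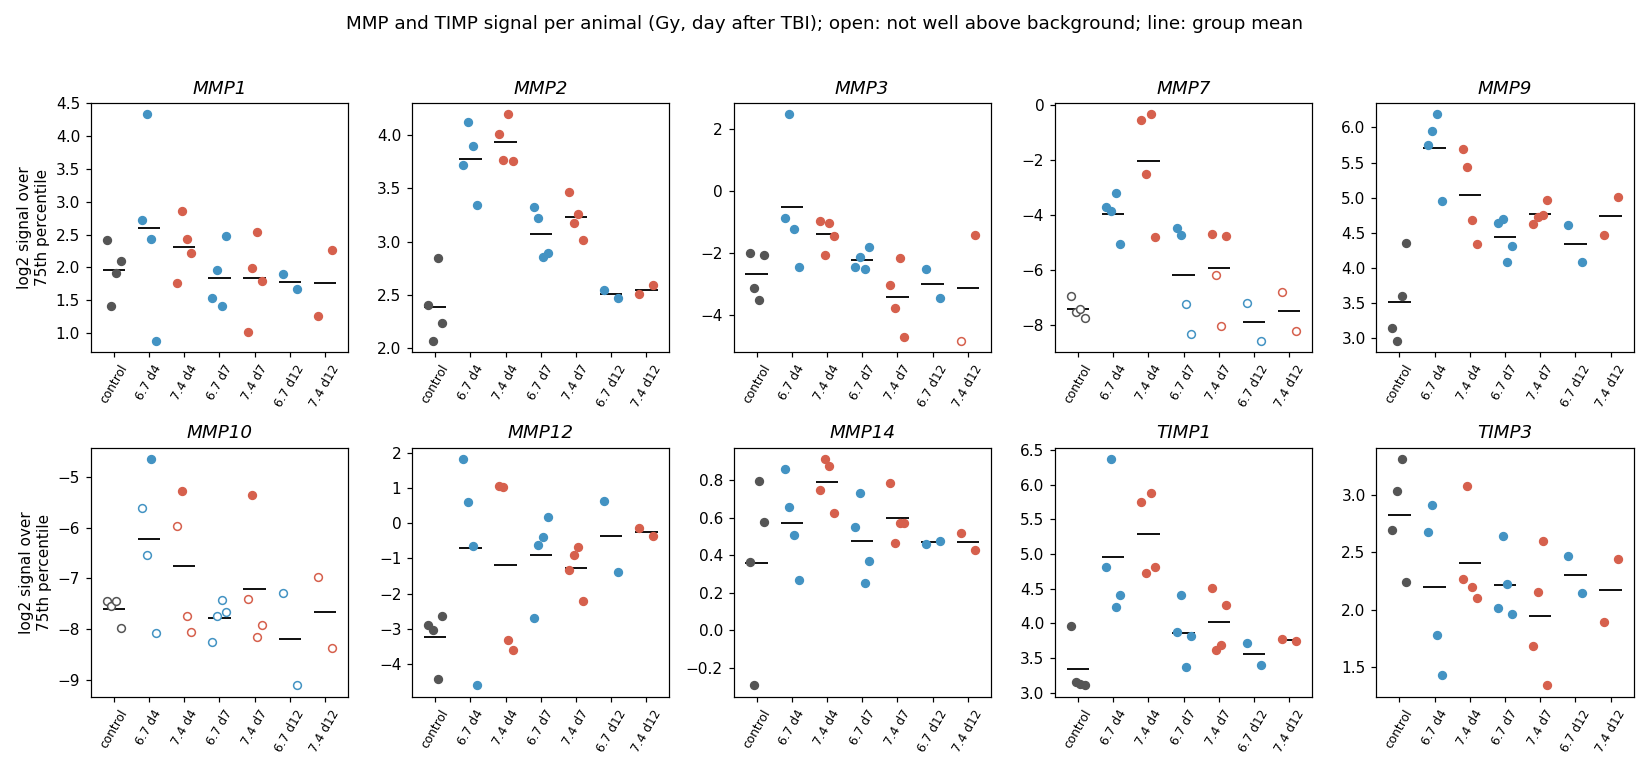
Log2 signal relative to the 75th percentile of the array (y axis, own scale per panel) for each of the 10 genes in each group (x axis, dose in Gy and day). Each point is 1 animal, open points were not well above background, and lines are group means. MMP2, MMP7 and TIMP1 are highest on day 4 at both doses, and MMP9 stays above the control mean in every irradiated group. MMP14 overlaps the control range in every group. TIMP3 has its highest mean in control, with animals below the control range in every irradiated group.

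MMP2 encodes gelatinase A, which cleaves denatured collagen and basement membrane type IV collagen and is made mainly by stromal cells. Its log2 levels in the 4 control animals were 2.41, 2.07, 2.85 and 2.23. On day 4 they were 3.72, 4.13, 3.90 and 3.34 at 6.7 Gy and 4.01, 3.76, 4.20 and 3.76 at 7.4 Gy. Every day 4 animal lay above every control animal. Here and below, such separation of groups is a description only, because its share over all tested probes was not counted. The mean rose from 2.39 ± 0.33 (SD, n = 4) to 3.77 ± 0.33 (n = 4) at 6.7 Gy, a log2 change of 1.38 ± 0.18 (SE), or 2.61-fold, with a limma adjusted p of 0.000304. After 7.4-Gy TBI it rose to 3.93 ± 0.21 (n = 4), a log2 change of 1.54 ± 0.18, or 2.91-fold, with an adjusted p of 2.89e-05. The spread among animals was narrow, and both calls were kept under all 26 alternative settings, with log2 changes of 1.26 to 1.6 and 1.41 to 1.92. By scan day, the log2 change at 6.7 Gy was 1.38 on both scan days, and at 7.4 Gy, where all 4 animals were scanned on the second day, it was 1.39 against the 2 controls of that day.

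MMP9 encodes gelatinase B, which shares substrates with MMP2 and is carried by neutrophils and macrophages among other cells. Its control log2 levels were 3.15, 2.97, 3.61 and 4.36, and replicate 4 was the highest of these. On day 4 the levels were 5.75, 5.94, 6.19 and 4.95 at 6.7 Gy and 5.69, 5.43, 4.68 and 4.34 at 7.4 Gy. The 6.7-Gy animals all lay above the controls, whereas the lowest 7.4-Gy animal fell just under the highest control. This gave a log2 change of 2.19 ± 0.32 (SE) at 6.7 Gy, or 4.55-fold, with an adjusted p of 0.000616. After 7.4-Gy TBI it was 1.52 ± 0.32, or 2.86-fold, with an adjusted p of 0.00296. The methods' t-test ended both calls, at adjusted p of 0.0534 and 0.079. The call at 7.4 Gy was also lost with array position as a block, where the log2 change was 1.79 and the adjusted p 0.06, and with position and scan day as blocks, where they were 1.45 and 0.384. By scan day, the 6.7-Gy difference was 2.51 and 1.86, and the 7.4-Gy difference was 1.05 within the second day. Over all 26 alternatives the adjusted p ranged from 0.000241 to 0.0534 at 6.7 Gy and from 0.000647 to 0.384 at 7.4 Gy.

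MMP7 encodes matrilysin, a small MMP without the hemopexin domain that epithelial cells secrete and that processes defensins and cell-surface proteins. Its probe was well above background on 12 of 24 arrays, and on none of the 4 control arrays, where the measured log2 levels were -6.94, -7.52, -7.42 and -7.73. On day 4 all 8 arrays were above background, with -3.71, -3.84, -3.20 and -5.05 at 6.7 Gy and -0.55, -2.51, -0.32 and -4.78 at 7.4 Gy. All day 4 animals therefore exceeded the controls, and replicates 1 and 3 of the 7.4-Gy group stood far above the others. The control arrays give only an approximate upper bound, so the fold is an approximate lower bound. For 6.7 Gy it was at least 3.24-fold higher, and for 7.4 Gy at least 12.2-fold, with fitted log2 changes of 3.45 ± 0.95 and 5.36 ± 0.95 (SE) and adjusted p of 0.0272 and 0.00079. Each bound sets the mean of the irradiated group against the dimmest spots that were well above background on the control arrays. The limit of a given spot can be higher than that. For example, an MMP3 spot at -4.82 was not well above background on a 7.4-Gy day 12 array.

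By scan day, the MMP7 difference at 6.7 Gy was 3.11 and 3.80, and at 7.4 Gy it was 5.54 within the second day. At 6.7 Gy, 9 of 26 alternatives ended the call. It was lost when any 1 of 6 arrays was left out, namely control replicates 2, 3 and 4, with adjusted p of 0.0515, 0.0559 and 0.0629, and 6.7-Gy day 4 replicates 1, 2 and 3, with adjusted p of 0.0618, 0.0564 and 0.0701. It was also lost with slide as a block (log2 change 3.10, adjusted p 0.0791), with array position as a block (3.62, 0.077) and with normexp background correction, which pulls dim signals together (0.69, 0.317). The adjusted p over all 26 alternatives ranged from 0.00545 to 0.317. At 7.4 Gy the call held under 25 of 26 alternatives, with an adjusted p of 0.000199 to 0.0556. The normexp log2 change there was 2.04, still called, and the call was lost with position and scan day as blocks together, at a log2 change of 8.36 and an adjusted p of 0.0556.

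TIMP1 encodes a secreted inhibitor that binds active MMPs and also pro-MMP9, and it is a well-known acute-phase and wound response transcript. Control log2 levels on its brighter probe were 3.96, 3.15, 3.13 and 3.10, with replicate 1 apart from the others. On day 4 they were 4.81, 6.37, 4.24 and 4.42 at 6.7 Gy and 5.75, 4.72, 5.89 and 4.81 at 7.4 Gy. Every day 4 animal exceeded every control. Relative to control the log2 change was 1.62 ± 0.39 (SE) at 6.7 Gy, or 3.08-fold, with an adjusted p of 0.0137, and 1.95 ± 0.39 at 7.4 Gy, or 3.87-fold, with an adjusted p of 0.00185. The second TIMP1 probe gave log2 changes of 1.69 and 2.0 with adjusted p of 0.0157 and 0.0026, so both probes were called at both doses. The 7.4-Gy call was kept under all 26 alternatives. The 6.7-Gy call was lost under the methods' t-test (adjusted p 0.159), in a fit of the compared groups alone (0.0924) and with slide as a block (0.1), within a range of 0.00539 to 0.159 over 26 alternatives. Without 6.7-Gy day 4 replicate 2, the highest animal, the log2 change was 1.15 and the call was kept at an adjusted p of 0.037. At 6.7 Gy the difference from control was 0.77 on the first scan day and 2.47 on the second.

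TIMP3, which encodes the inhibitor that stays bound to the matrix and also acts on ADAM17, was not called on day 4. Its brightest probe had log2 levels of 2.70, 3.04, 3.32 and 2.24 in controls, 2.68, 2.91, 1.78 and 1.43 on day 4 at 6.7 Gy, and 2.26, 3.08, 2.20 and 2.11 on day 4 at 7.4 Gy. The groups overlapped. In log2 terms the change was -0.62 with an adjusted p of 0.25 at 6.7 Gy and -0.41 with 0.414 at 7.4 Gy. On day 4 the 6 probes lay between -0.75 and -0.24, and none was called in any comparison with control. The brightest probe had its highest mean in control (2.82), with 2.21 and 1.94 on day 7 at 6.7 and 7.4 Gy. On day 12 the means were 2.31 and 2.17. The second brightest probe had means of 1.88 in control, 1.07 and 0.84 on day 7, and 1.01 and 1.08 on day 12.

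MMP3 and MMP10 encode the stromelysins, which cleave proteoglycans and fibronectin and activate other pro-MMPs. MMP3 log2 levels were -2.0, -3.12, -3.52 and -2.07 in controls, -0.87, 2.48, -1.22 and -2.45 on day 4 at 6.7 Gy, and -0.97, -2.06, -1.04 and -1.46 on day 4 at 7.4 Gy. Replicate 2 of the 6.7-Gy group stood far above all other animals, and both day 4 groups overlapped the controls. The log2 change was 2.16 ± 0.82 (SE), or 4.48-fold, with an adjusted p of 0.0971 at 6.7 Gy, and 1.29 ± 0.82 with 0.282 at 7.4 Gy. Without 6.7-Gy day 4 replicate 4, the lowest animal of that group, the 6.7-Gy change was 2.81 and passed at an adjusted p of 0.0383, and without replicate 2 it was 1.17 with an adjusted p of 0.299. It also passed with array position as a block (3.48, 0.0277), within a range of 0.0277 to 0.336 over 26 alternatives. The MMP10 probe was well above background on 3 of 24 arrays only, 1 each on day 4 at 6.7 Gy (-4.65), on day 4 at 7.4 Gy (-5.28) and on day 7 at 7.4 Gy (-5.36), and was not well above background in the other animals.

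MMP12 encodes macrophage elastase, named for its main source and substrate. Its log2 levels were -2.88, -3.04, -4.42 and -2.62 in controls, 1.83, 0.61, -0.64 and -4.61 on day 4 at 6.7 Gy, and 1.06, 1.04, -3.30 and -3.60 on day 4 at 7.4 Gy. The day 4 animals were split, with 5 of 8 above all controls and the other 3 within or below the control range. The log2 change was 2.54 ± 1.17 (SE) with an adjusted p of 0.176 at 6.7 Gy and 2.04 ± 1.17 with 0.233 at 7.4 Gy. Without 6.7-Gy day 4 replicate 4 the 6.7-Gy change was 3.84 with an adjusted p of 0.026, and with position as a block it was 4.46 with 0.0437, within a range of 0.026 to 0.398 over 26 alternatives.

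MMP1, the interstitial collagenase that opens fibrillar collagen, had log2 levels of 1.42 to 2.41 in controls, 0.89 to 4.33 on day 4 at 6.7 Gy and 1.76 to 2.85 on day 4 at 7.4 Gy. Replicate 2 of the 6.7-Gy group, which had the highest MMP3 level, also had the highest MMP1 level. The changes of 0.63 and 0.35 had adjusted p of 0.453 and 0.663, and the second MMP1 probe gave 0.67 and 0.35. MMP14 encodes a membrane-anchored MMP that activates pro-MMP2 at the cell surface. Its levels were -0.29 to 0.80 in controls, 0.27 to 0.86 on day 4 at 6.7 Gy and 0.62 to 0.91 on day 4 at 7.4 Gy, and changes of 0.21 and 0.43 had adjusted p of 0.496 and 0.104.

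In the RefSeq annotation of the rhesus assembly T2T-MMU8v2.0, 5 of the genes lie in the order MMP7, MMP10, MMP1, MMP3 and MMP12 on 1 chromosome that holds 10 MMP genes. MMP20, MMP27 and MMP8 lie between MMP7 and MMP10. Among these 5 genes of the list only MMP7 was called on day 4 at either dose. MMP9 and TIMP3 share another chromosome, and MMP2, MMP14 and TIMP1 are each on a different one.

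**Figure D2:**
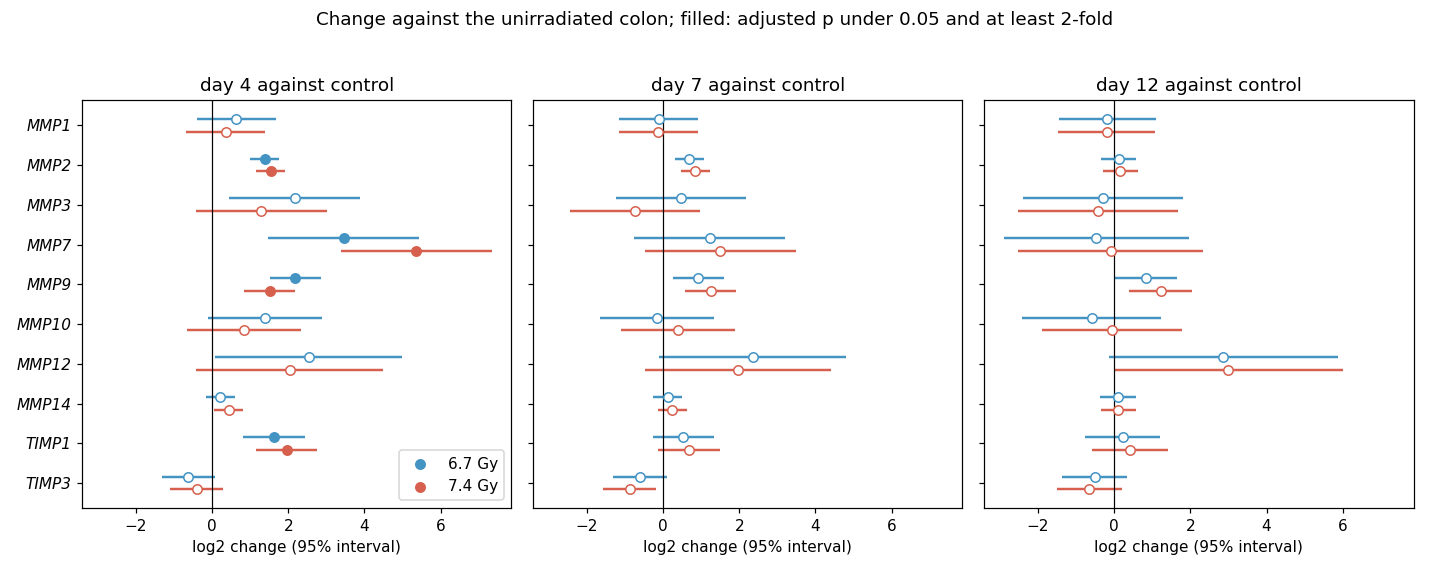
Log2 change of each gene against the 4 control animals (x axis, with 95% interval) on each day, with doses in separate colours. Filled points passed an adjusted p of 0.05 and 2-fold, which MMP2, MMP7, MMP9 and TIMP1 did on day 4 at both doses and no gene did on day 7 or day 12. The MMP7 and MMP10 points use values under background and are not measured folds.

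On day 7 no MMP or TIMP was called against control by limma or by the methods' t-test. Over all tested probes 0.317% were called in either direction at 6.7 Gy and 0.387% at 7.4 Gy. At an unadjusted p below 0.05 there were 2 of the 10 genes at 6.7 Gy and 3 at 7.4 Gy, against 9.63% and 11.1% of all tested probes. The median log2 change over the 10 genes was 0.50 and 0.54, against -0.02 and 0.01 over all tested genes.

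MMP2 log2 levels on day 7 were 3.33, 3.22, 2.85 and 2.89 at 6.7 Gy and 3.47, 3.18, 3.26 and 3.02 at 7.4 Gy. All 8 day 7 animals were below the day 4 means. They were above all 4 controls, but at 6.7 Gy only narrowly, with a lowest level of 2.854 against a highest control of 2.845. The log2 change was 0.68 ± 0.18 (SE), or 1.61-fold, with an adjusted p of 0.115 at 6.7 Gy, and 0.84 ± 0.18, or 1.79-fold, with an adjusted p of 0.0418 at 7.4 Gy, which is under the 2-fold minimum. Scaling to spike-in controls instead gave 1.01 at 7.4 Gy with an adjusted p of 0.0236, which passes both limits. The adjusted p over 24 alternatives ranged from 0.0236 to 0.401.

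MMP9 log2 levels on day 7 were 4.65, 4.70, 4.09 and 4.32 at 6.7 Gy and 4.63, 4.72, 4.75 and 4.97 at 7.4 Gy. The 7.4-Gy animals were tightly grouped and lay above every control, and the 6.7-Gy animals overlapped the highest control. In log2 terms this was 0.92 ± 0.32 (SE) with an adjusted p of 0.296 at 6.7 Gy and 1.25 ± 0.32 with 0.0954 at 7.4 Gy.

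MMP7 was above background on 2 of 4 arrays in each day 7 group. Its log2 levels were -4.46, -4.71, -7.23 and -8.32 at 6.7 Gy and -4.67, -6.16, -8.02 and -4.77 at 7.4 Gy. In each group the other 2 animals were under background, as the controls were. TIMP1 log2 levels were 3.88, 4.41, 3.36 and 3.82 at 6.7 Gy and 4.51, 3.62, 3.69 and 4.26 at 7.4 Gy, overlapping the control range only through control replicate 1 (3.96), since the other 3 controls had 3.10 to 3.15, with changes of 0.53 and 0.68 at adjusted p of 0.718 and 0.54. MMP12 log2 levels were -2.69, -0.62, -0.40 and 0.17 at 6.7 Gy and -1.34, -0.89, -0.69 and -2.19 at 7.4 Gy. The 7.4-Gy animals all lay above the controls, yet the changes of 2.35 and 1.96 had adjusted p of 0.544 and 0.567.

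On day 12, with 2 animals per dose, none of the 10 genes was called against control by limma or by the methods' t-test, at either dose or with both doses together. The share of all tested probes called was 0.0183% at 6.7 Gy, 0.0262% at 7.4 Gy and 0.0654% with both doses together. At an unadjusted p below 0.05 the counts were 1, 1 and 2 of the 10 genes, against 6.54%, 6.85% and 8.64% of all tested probes. MMP2 had levels of 2.55 and 2.47 at 6.7 Gy and 2.51 and 2.59 at 7.4 Gy, within the control range. TIMP1 levels of 3.71, 3.40, 3.77 and 3.74 were below control replicate 1 alone and above the other 3 controls, and MMP7 was under background in all 4 animals.

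MMP9 had log2 levels of 4.62 and 4.08 on day 12 at 6.7 Gy and 4.47 and 5.01 at 7.4 Gy, above the control mean of 3.52 in 4 of 4 animals. The log2 change with both doses together was 1.02 ± 0.32 (SE), or 2.03-fold, with an unadjusted p of 0.00476 and an adjusted p of 0.316. It passed only with spike-in scaling, at 1.33 and an adjusted p of 0.0442, within a range of 0.0442 to 0.571 over 24 alternatives. MMP12 had levels of 0.64 and -1.39 at 6.7 Gy and -0.14 and -0.36 at 7.4 Gy, above every control animal. Its log2 change with both doses together was 2.93 ± 1.17, or 7.62-fold, with an unadjusted p of 0.0217 and an adjusted p of 0.473, which did not pass.

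Between day 4 and day 7, over both doses, MMP3, MMP7 and TIMP1 were called lower, 3 of the 10 genes, when 2.06% of all tested probes were called lower. These comparisons use no control animal. Day 4 arrays lay at slide positions 1 and 2, day 7 arrays at 3 and 4 and day 12 arrays at 4, so day and position cannot be told apart in the comparisons between days. MMP7 had a fitted log2 change of -3.05 ± 0.67 (SE) with an adjusted p of 0.00278. This is not a measured difference, because 4 of the 8 day 7 arrays were not well above background, and over 32 alternatives it ran from -3.50 to -1.13, the latter with normexp correction, with the call kept in all of them. The log2 change of MMP3 was -1.87 ± 0.58 with 0.023, and that of TIMP1 was -1.18 ± 0.27 with 0.00403. In each of these genes 8 of 8 day 7 animals lay below the day 4 mean. Without 6.7-Gy day 4 replicate 2 the TIMP1 change was -0.94 and no longer reached 2-fold. By scan day, the MMP7 change was -1.37 on the first and -3.98 on the second, the MMP3 change -1.02 and -2.12, and the TIMP1 change -0.27 and -1.56. The changes of MMP2 (-0.70, adjusted p 0.000715) and MMP9 (-0.77, adjusted p 0.0173) were under 2-fold, and MMP12 changed by -0.13 with an adjusted p of 0.925.

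Between day 4 and day 12 MMP2, MMP3, MMP7 and TIMP1 were called lower, 4 of the 10 genes, when 2.92% of all tested probes were called lower. MMP2 changed by -1.32 ± 0.16 (SE) with an adjusted p of 2.51e-05, and no day 12 animal reached the lowest day 4 animal. TIMP1 changed by -1.47 ± 0.34 with an adjusted p of 0.00406. MMP7 was at least 6.60-fold lower on day 12, with an adjusted p of 0.000555 and a call that normexp correction ended (-0.94, adjusted p 0.0392, under 2-fold). MMP3 changed by -2.09 ± 0.71 with an adjusted p of 0.0377, a call kept under 19 of 28 alternatives, with adjusted p from 0.0123 to 0.273. The MMP3 call was lost without 7.4-Gy day 4 replicate 1, 3 or 4 (adjusted p 0.0606, 0.0574 and 0.0511), without either 6.7-Gy day 12 animal (0.0646 and 0.135) and without 7.4-Gy day 12 replicate 1 (log2 change -1.24, 0.273). MMP9 changed by -0.83 with an adjusted p of 0.0359, under 2-fold, and MMP12 by 0.64 with 0.683.

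The doses were compared at matched days. None of the 10 genes was called between 7.4 and 6.7 Gy on day 4, day 7 or day 12, and 0% of all tested probes were called on any of these days by limma. At an unadjusted p below 0.05 there was 1 of the 10 genes on day 4, against 6.22% of all tested probes, and 0 on the other days, against 1.9% on day 7 and 3.09% on day 12. That gene was MMP9, which was lower at 7.4 than at 6.7 Gy, with a log2 difference of -0.67 ± 0.32 (SE), an unadjusted p of 0.0499 and an adjusted p of 0.802. MMP7 differed by 1.91 in the other direction, with a 95% interval of -0.07 to 3.90 and an adjusted p of 0.813, so neither equality nor a large dose difference can be read from it. For MMP2 the interval was -0.22 to 0.54 and for TIMP1 -0.48 to 1.14.

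Ordered by group mean, MMP2 was highest on day 4 at 7.4 Gy (3.93), then on day 4 at 6.7 Gy (3.77), day 7 at 7.4 Gy (3.23), day 7 at 6.7 Gy (3.07), the day 12 groups (2.55 and 2.51) and control (2.39). The day 7 group at 6.7 Gy and the day 12 group at 7.4 Gy were the only neighbours in that order whose animals did not overlap. TIMP1 followed the same order of groups as MMP2, with means of 5.29, 4.96, 4.02, 3.87, 3.76, 3.56 and 3.34, and only its day 12 groups did not overlap as neighbours. MMP9 had its highest mean on day 4 at 6.7 Gy (5.71) and all neighbours in its order overlapped. MMP12 had its highest means on day 12 (-0.25 and -0.37), and the only step without overlap was from day 7 at 7.4 Gy (-1.28) to control (-3.24).

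Cell type markers moved on the same day as the 4 called genes. The 7 tested surface colonocyte markers, genes of absorptive cells at the top of the crypt, had 4 called lower on day 4 at 6.7 Gy and 6 at 7.4 Gy. Their summed signal, in multiples of the 75th percentile of the array, ranged from 386 to 684 in controls, from 56.9 to 221 on day 4 at 6.7 Gy and from 20.5 to 187 on day 4 at 7.4 Gy. On day 7 the sum was 321 to 380 at 6.7 Gy and 108 to 473 at 7.4 Gy, and on day 12 it was 465 to 622. The sum of 9 general epithelial markers was 775 to 957 in controls, 366 to 590 on day 4 at 6.7 Gy and 367 to 467 on day 4 at 7.4 Gy, with 4 of 9 called lower at each dose. Replicates 1 and 3 on day 4 at 7.4 Gy, which had the highest MMP7 levels of all animals, had the lowest log2 sums of surface colonocyte markers, 4.44 and 4.36. The part of these shifts in cell markers in the MMP and TIMP changes was not tested.

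**Figure D3:**
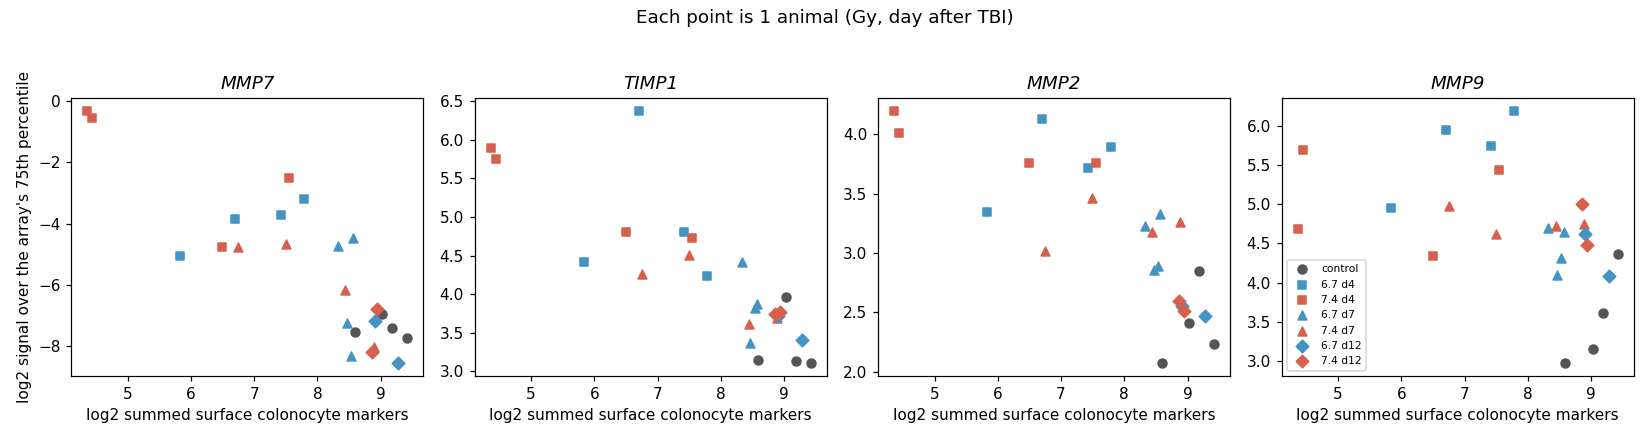
Log2 level of MMP7, TIMP1, MMP2 and MMP9 (y axes) against the log2 summed signal of the surface colonocyte markers (x axis), with 1 point per animal, coloured by dose and shaped by day. Day 4 animals, drawn as squares, have the lowest marker sums, and the 2 animals with sums of 4.44 and 4.36 have the highest MMP7 levels. The relation is not particular to this list. Over the 24 arrays MMP7 had a Pearson correlation of -0.85 with this sum and -0.80 with the epithelial sum. It was 0.81 with both the fibroblast and the endothelial sum, and from -0.15 (smooth muscle) to 0.72 (neutrophil) with the others. MMP9 is spread widely among animals with similar sums.

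Stromal and immune markers were read in the same way. The fibroblast sum was 27.3 to 46.6 in controls, 32.9 to 55.7 on day 4 at 6.7 Gy and 51.3 to 80.6 on day 4 at 7.4 Gy, with 0 and 2 of 6 markers called higher. The macrophage and monocyte sum was 70.1 to 105 in controls. On day 4 it was 91.3 to 126 at 6.7 Gy and 116 to 152 at 7.4 Gy, with 0 and 1 of 8 markers called higher. Its brightest marker was C1QA, with mean log2 levels of 5.67, 6.01 and 6.23 in controls, at 6.7 Gy and at 7.4 Gy. In the same order CD14 had 0.29, 1.03 and 1.18, CD68 had 1.61, 1.67 and 1.86, and CSF1R had 1.06, 0.87 and 1.15. The median log2 change over the 8 markers was 0.44 and 0.68. The neutrophil sum was 0.792 to 0.930 in controls. On day 4 it was 0.967 to 4.35 at 6.7 Gy and 1.05 to 10.6 at 7.4 Gy, with 0 and 2 of 6 called higher. MPO, which encodes a neutrophil granule protein, was above background on no array. Replicate 3 at 7.4 Gy and replicate 2 at 6.7 Gy were highest, with log2 sums of 3.41 and 2.12 against 0.82 or less in the other day 4 animals. The neutrophil list was not uniform. Mean log2 levels in controls, at 6.7 Gy and at 7.4 Gy on day 4 were -5.03, -2.22 and -1.42 for S100A8 and -1.65, -0.25 and 0.59 for S100A9, but -1.78, -2.12 and -2.20 for CSF3R and -3.29, -3.28 and -3.74 for CXCR1, and the median log2 change over the 6 markers was 0.32 and 0.14. The smooth muscle sum was 508 to 814 in controls, 257 to 813 on day 4 at 6.7 Gy and 538 to 682 on day 4 at 7.4 Gy, with none of 4 markers called. Paneth cell markers, of interest because these cells are a known source of MMP7 in the small intestine, summed to 25.0 to 101 in controls, 141 to 290 on day 4 at 6.7 Gy and 60.6 to 166 on day 4 at 7.4 Gy, with 1 and 2 of 3 called higher. On day 7 the Paneth sum was 152 to 259 at 6.7 Gy and 71.0 to 312 at 7.4 Gy, against a control median of 63.0. It mostly reflects PLA2G2A, the brightest marker of this list, and LYZ is also in the macrophage list. At 6.7 Gy mean log2 levels in controls, on day 4 and on day 7 were 5.68, 7.45 and 7.61 for PLA2G2A and -4.28, -1.47 and -0.66 for DEFA6. At 7.4 Gy the day 4 and day 7 means were 6.55 and 7.36 for PLA2G2A and 1.19 and -0.81 for DEFA6. The endothelial sum was 3.01 to 3.82 in controls. On day 4 it was 3.92 to 5.35 at 6.7 Gy and 4.94 to 7.01 at 7.4 Gy, with no overlap with control. Of its 5 markers, 0 and 1 were called higher. This sum leans on VWF, its brightest marker, with mean log2 levels of 0.663, 1.466 and 1.905 in controls, at 6.7 Gy and at 7.4 Gy. In the same order PECAM1 had 0.14, -0.01 and 0.18, and KDR had -1.24, -0.99 and -0.73. The median log2 change over the 5 markers was 0.26 and 0.51. No marker of any list was called on day 7 or, with both doses together, on day 12. The part of fibroblasts, macrophages, neutrophils, Paneth cells, endothelium or lymphocytes in the MMP and TIMP changes was not tested.

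Genes with the most similar pattern were found by Pearson correlation of log2 levels over the 24 arrays, which share groups, slides and tissue composition. MMP2 was closest to RPS27L (0.95) and ZMAT3 (0.93), both known as p53 targets. TIMP1 was closest to the eosinophil chemokine CCL11 (0.93) and the protease ADAMTS1 (0.92), and MMP7 to RBMS2 (0.93) and the neutrophil chemokine CXCL3 (0.92). MMP9 was closest to the lipid transfer protein PLTP (0.85) and to PAPPA (0.82), a metalloproteinase that cleaves IGF-binding proteins. MMP3 was closest to TNFAIP6 (0.84), which binds hyaluronan, and to CEMIP (0.83), which takes part in hyaluronan breakdown. MMP12 reached only 0.70 with ZNF805 and 0.67 with POSTN, which encodes periostin. Among the 10 genes themselves, MMP2 with MMP7 and MMP2 with TIMP1 both had 0.85, and MMP7 with TIMP1 had 0.83. The correlation of MMP1 with MMP3 was 0.76, and 0.55 without 6.7-Gy day 4 replicate 2.

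Other genes of the matrix proteolysis system were taken from lists by role. Of 15 other MMPs, 9 were tested, none was called higher on day 4, and 2 were called lower at 7.4 Gy. These were the membrane-type MMP15 (log2 change -1.08, adjusted p 0.000395) and the epithelial MMP28 (-1.10, adjusted p 0.00261), whose other probe was not called. After 6.7-Gy TBI they changed by -0.80 and -0.91, under 2-fold. The median over the 9 genes was -0.22 and -0.27 at the lower and higher dose.

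Of 12 tested inhibitors and binding partners, 3 were called higher after either dose, and 1 was called lower at 7.4 Gy. A2M, the plasma protease trap alpha-2-macroglobulin, rose by 1.31 and 1.64. LCN2, a lipocalin that binds MMP9, rose by 2.08 and 1.81 on its brighter probe and by 5.87 and 5.69 on its other probe. TFPI2, a serine protease inhibitor of the matrix, was at least 11-fold and at least 5.58-fold higher than in controls, with adjusted p of 0.0164 and 0.0338, and its other probe was called at 6.7 Gy only. BSG, the MMP inducer basigin, changed by -0.85 (under 2-fold) and -1.35. The TIMPs outside the 10 genes were not called, with changes of 0.24 and 0.42 for TIMP2 and 0.04 and 0.39 for TIMP4.

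In the plasminogen system, which activates several pro-MMPs, 1 of 7 tested genes was called higher at 6.7 Gy and 2 at 7.4 Gy. PLAU, the urokinase activator, rose by 1.47 (adjusted p 0.023) and 1.67 (0.00567). SERPINE2, a protease inhibitor of the serpin family, had 0.69 at 6.7 Gy and rose by 1.35 (0.00518) at 7.4 Gy. Of 13 tested ADAM and ADAMTS proteases, 1 was called higher at 6.7 Gy and 4 at 7.4 Gy. ADAMTS1, an aggrecanase, rose by 2.17 (0.0118) and 2.44 (0.00255) on its brighter probe and by 1.45 and 1.36 on the other. The other 3 called at 7.4 Gy were ADAM28, ADAM9 and ADAMTS2, and for ADAM9 and ADAMTS2 the other probe was not called, with changes of 0.52 and -0.53. Of 10 tested cathepsins and granule proteases only CTSL, a lysosomal cysteine protease, was called, at 1.24 (0.0239) and 1.16 (0.0189).

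Of 15 tested matrix substrates, 2 were called higher at 6.7 Gy and 5 at 7.4 Gy, with medians of 0.44 and 0.84. The laminin chain LAMC1 rose by 1.07 (adjusted p 0.00278) and 1.71 (1.9e-05), and the proteoglycan VCAN by 1.39 (0.00371) and 1.58 (0.000501), with 1 of its 3 probes flat. COL1A2, a chain of type I collagen, had 1.06 (0.0896) at 6.7 Gy and rose by 1.79 (0.00379) at 7.4 Gy, whereas its other probe gave 0.16 and 0.19. Of 21 tested cytokines and factors that induce MMPs, 3 were called higher at 6.7 Gy and 6 at 7.4 Gy. IL1A rose by 3.76 (0.00523) and 5.09 (0.000196), with 1 of 4 control arrays above background, and its other probe gave 2.55 and 3.99, also called. ETV4, a transcription factor of the ETS family, was at least 3.24-fold and at least 3.56-fold higher (0.00411 and 0.000989). IL1B had 1.57 (0.137) at 6.7 Gy and rose by 2.25 (0.0224) at 7.4 Gy. No gene of these lists was called against control on day 7 or day 12.

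**Figure D4:**
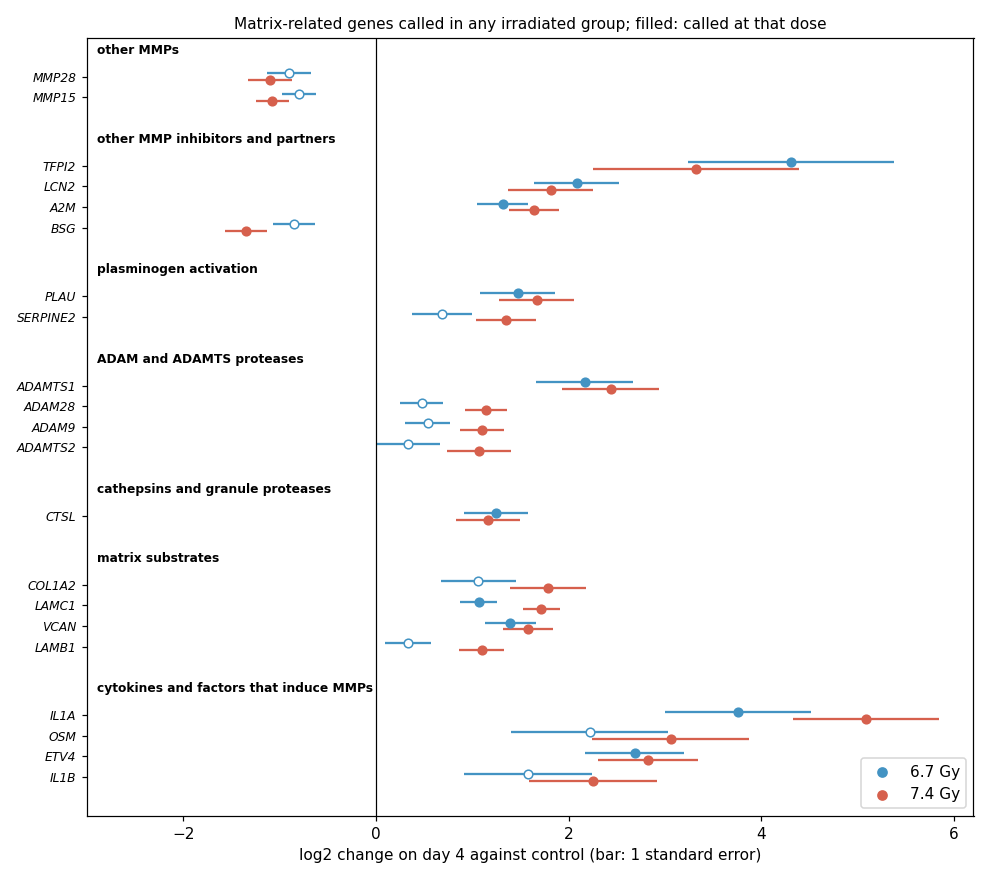
Log2 change on day 4 against control (x axis, bars are 1 standard error) for the genes of the matrix lists that were called at either dose, at most 4 per list. Filled points were called at that dose. MMP15, MMP28 and BSG lie below 0 and the others above, and TFPI2, ETV4 and OSM are drawn at fitted values although their controls were under background.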

How the data were processed

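Colon RNA of 24 animals was read on one-colour Agilent rhesus arrays. The deposited scanner files hold intensity per spot, background-subtracted by Feature Extraction 11.0.1.1, and the authors also deposited log2 tables. In their raw table the single-spot values without an outlier flag equal the log2 scanner intensity within 0.001, and in their normalized table each probe is centred on its median with 1 constant per array, so these tables served to check scale, to name probes and as an alternative. They hold no depth, and the number of arrays limits the precision. The array layout names the rheMac2 genome, for which no coordinates are given here. Of 43603 probes, 18640 were named by the series table and 3268 more by RefSeq accession, and 19808 stayed unnamed.

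Log2 processed intensity was scaled to the 75th percentile of each array, outlier spots were left out, and duplicate spots were averaged. Probes well above background on at least 2 arrays were tested (38220) with limma 3.58.1 in R 4.3.3, with 1 mean per group over all 24 arrays and Benjamini-Hochberg adjustment. The brightest tested probe stood for a gene. A probe above background on no array of a group has only a bound there, taken from the dimmest spot well above background on each array. Such bounds are approximate, because the limit differs between spots. Marker sums kept outlier spots so that every array summed the same probes. The script was tested on simulated data. All 10 genes are named. In the other lists at most 4 called genes per list are named, by size of change, and 2 most similar genes per gene. An item of these lists is not reported here. The genes and lists were chosen with earlier results of these data known.

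Groups came from the sample labels. A treatment note names another last day than the labels, which were followed. Arrays lie on 6 slides with 4 positions, scanned on 2 days. All controls lay at position 1, the 6.7-Gy day 4 arrays at 1 and 2, and the 7.4-Gy day 4 arrays at 2. Later days lay at 3 and 4. The 7.4-Gy day 4 group therefore shares no position with control. Its position-block estimate rests on the split of the 6.7-Gy day 4 arrays. Position cannot be told apart from day 7 or day 12 in comparisons with control or with day 4. Alternatives were normexp background correction, spike-in, quantile and other scalings or filters, the methods' t-test, blocks for slide, position, scan day and replicate number, and leaving out each array. Other intestinal segments of the study were not analysed here.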

Additional observations from a re-analysis of the deposited data

Results flagged for a closer look

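The control group of TIMP1 held 1 animal far from the other 3. Replicate 1 had a log2 level of 3.96 against 3.10 to 3.15, a gap of 0.9485 of the group's range. Without it the TIMP1 change on day 4 was 1.83 at 6.7 Gy and 2.16 at 7.4 Gy, and both calls were kept. On day 4 at 7.4 Gy, TIMP3 replicate 2 had 3.08 against 2.11 to 2.26 in the others, a gap of 0.837 of the range. These were 2 of 50 groups of 4 animals, and chance gives about 1 in 20.

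The change from control differed between days for several genes, in tests of the difference over both doses. Between day 4 and day 7 the log2 difference was -1.87 for MMP3, -3.05 for MMP7 and -1.18 for TIMP1. Between day 4 and day 12 it was -1.32 for MMP2, -2.09 for MMP3, -4.69 for MMP7 and -1.47 for TIMP1. MMP7 was under background in all day 12 animals and in 4 of 8 day 7 animals, so both of its values are fitted ones, and that of day 7 ran from -3.50 to -1.13 over 32 alternatives.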

How the results depend on the processing

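The number of the 10 genes called moved by more than 1.5 times in these cases. On day 4 at 6.7 Gy it was 2 under the methods' t-test and 2 with slide as a block, against 4. On day 4 at 7.4 Gy it was 2 with position and scan day as blocks, against 4. On day 7 at 7.4 Gy it was 1 with spike-in scaling and 1 with no 2-fold minimum, against 0, and on day 12 with both doses together it was 1 with spike-in scaling, against 0. For day 7 against day 4 it was 5 with no 2-fold minimum, against 3, and for day 12 against day 4 it was 2 with normexp, against 4. Leaving out 1 array at a time gave 3 to 6 and 4 to 4 on day 4 at 6.7 and 7.4 Gy, 2 to 4 for day 7 against day 4, 3 to 5 for day 12 against day 4, and 0 to 0 elsewhere. Spike-in scaling moved the median of all probes from -0.07 to 0.14 on day 4 at 6.7 Gy and from -0.07 to 0.20 at 7.4 Gy. Of 3128 gene values under alternatives, 3087 kept their side of the threshold and no called value changed sign. The causes were not tested.

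Replicate numbers do not pair the animals, since same-numbered arrays had deviations that correlated at -0.23 to 0.24. With the replicate block the counts were 4 and 4 on day 4, 0 on day 7 and day 12, 3 for day 7 against day 4 and 5 for day 12 against day 4, where MMP10 was added (-1.83, adjusted p 0.0448). Position blocks could not be fitted for day 7 or day 12 against control or day 4. MMP10 and, outside day 4, MMP7 are limited by signal near background.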
